A study of Mus musculus with 11 samples.

Results

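Angiotensinogen (*Agt*) and 9 genes of the acute phase response were examined in pancreatic islets of mice with a point mutation in the islet transcription factor PDX1. The members were *Agt*, the acute phase genes *Saa3*, *Lcn2*, *Orm1*, *Serpina3n*, *Hp*, *C3* and *Cp*, the interleukin-1 receptor gene *Il1r1* and the feedback inhibitor gene *Socs3*, 10 genes in all beside 19329 gene IDs in the deposited table. They were chosen by name with this contrast between genotypes already measured in these libraries, so their differences were in view when they were selected, and *Agt* stands among the 13 genes whose wild-type and mutant values are both on the right row as deposited. Of the 10 members, 8 have a row in the table, while *Orm1* and *Hp* were not analysed here.

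The libraries hold RNA of whole islets from male, chow-fed C57BL/6N mice of 14 weeks, in 6 wild-type libraries and 5 libraries of the homozygous PDX1 P33T line. The P33T mice carry a proline-to-threonine exchange (P33T) in the germline, made with CRISPR-Cas9, and both groups were otherwise untreated. Islets were kept in culture after isolation, and a figure legend of the study gives 6 mice for each replicate, so a library may be a pool and n counts libraries. A single-base change does not show in FPKM, so the labels could not be checked at the mutation itself, and *Pdx1* was measured at 77.9 to 80 FPKM in the P33T libraries. The genotypes cannot be told apart from whatever else differed between the 2 sets of mice, such as litters or islet isolation days, which the labels do not give.

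Angiotensinogen is the secreted precursor of the angiotensin peptides. Renin cuts it to angiotensin I, and angiotensin-converting enzyme makes angiotensin II from that. Acute phase proteins are made mainly by hepatocytes in inflammation, when interleukin-6 acts through STAT3 and interleukin-1 through NF-kB, and C/EBP factors act on many of the same genes. *Agt* is itself an acute phase gene in the liver, and mouse beta cells are known for abundant interleukin-1 receptor. The marker genes of the label were present: *Ins2* ranged from 135342 to 177811 FPKM in the P33T libraries. Among hepatocyte markers *Alb*, serum albumin, was low at 0.053 to 0.27 FPKM in P33T, while *Apoa2*, the most abundant gene of that list, reached 9.56 FPKM. *Apoa1* is listed at 0 in all 5 P33T libraries, and whether that 0 was measured is not known.

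Expression is given as FPKM, the reads of a gene per kilobase of its length, set against all reads counted for that library. The libraries held 19311937 to 37094286 counted reads in wild-type and 23731684 to 36865206 in P33T. Most wild-type FPKM stand on rows of other genes in the deposited table, and they were used only where the row could be identified. For *Agt*, *Serpina3n* and *Saa3* the row was identified by the reads in the authors' wild-type gene list. The row of *Il1r1* was found by its recovered length (6363 bases) and level, and nothing else of that length was above 0.01 FPKM. For *Lcn2* and *Cp* it was found only by a wider rule added later, and for *C3* and *Socs3* it was not found. Since the members were proposed from this genotype contrast, their differences between genotypes are given as a description, with no p-value.

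In the P33T libraries, whose rows are all known, *Il1r1* was the most abundant member, with a level of 55.9 FPKM ± 10.4 (SD, n = 5), above 96.6% of the 18963 genes with a value. *Agt* followed with 17.3 FPKM ± 2.6 (SD, n = 5), above 88.5% of genes, and *Socs3* with 5.8 FPKM ± 1.35 (SD, n = 5). *Lcn2* (1.32 FPKM ± 0.234), *C3* (1.11 FPKM ± 0.256) and *Serpina3n* (0.951 FPKM ± 0.114) came next, and the ranges of these 3 neighbours overlapped. *Cp* was at 0.23 FPKM ± 0.0648. FPKM is a level per length, so these genes can be set side by side. The order of the first 3 members held in every P33T library, and *Lcn2* was above *Serpina3n* in all 5, while the ranges of *C3* and of each of these 2 genes overlapped.

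*Agt* (ENSMUSG00000031980) was lower in every P33T library than in any wild-type library. The 6 wild-type libraries held 25.9, 30.5, 31.4, 26.5, 28 and 25.7 FPKM, from 8324 reads in all. The 5 P33T libraries held 19.6, 13.9, 16.2, 20.2 and 16.5 FPKM, from 4702 reads in all. The groups did not overlap, and the highest mutant library was replicate 4 and the lowest replicate 2. The mean was 28 FPKM ± 2.46 (SD, n = 6) in wild-type and 17.3 ± 2.6 (n = 5) in P33T, so the mutant mean was 0.618 of the wild-type mean. On the log2(FPKM + 0.1) scale the difference was -0.70 (SE 0.11). It lay between -0.76 and -0.63 when any 1 library was left out, and was -0.55 (SE 0.08) without wild-type replicates 2 and 3 and P33T replicate 2, left out for their levels of markers of other cell types.

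**Figure D1:**
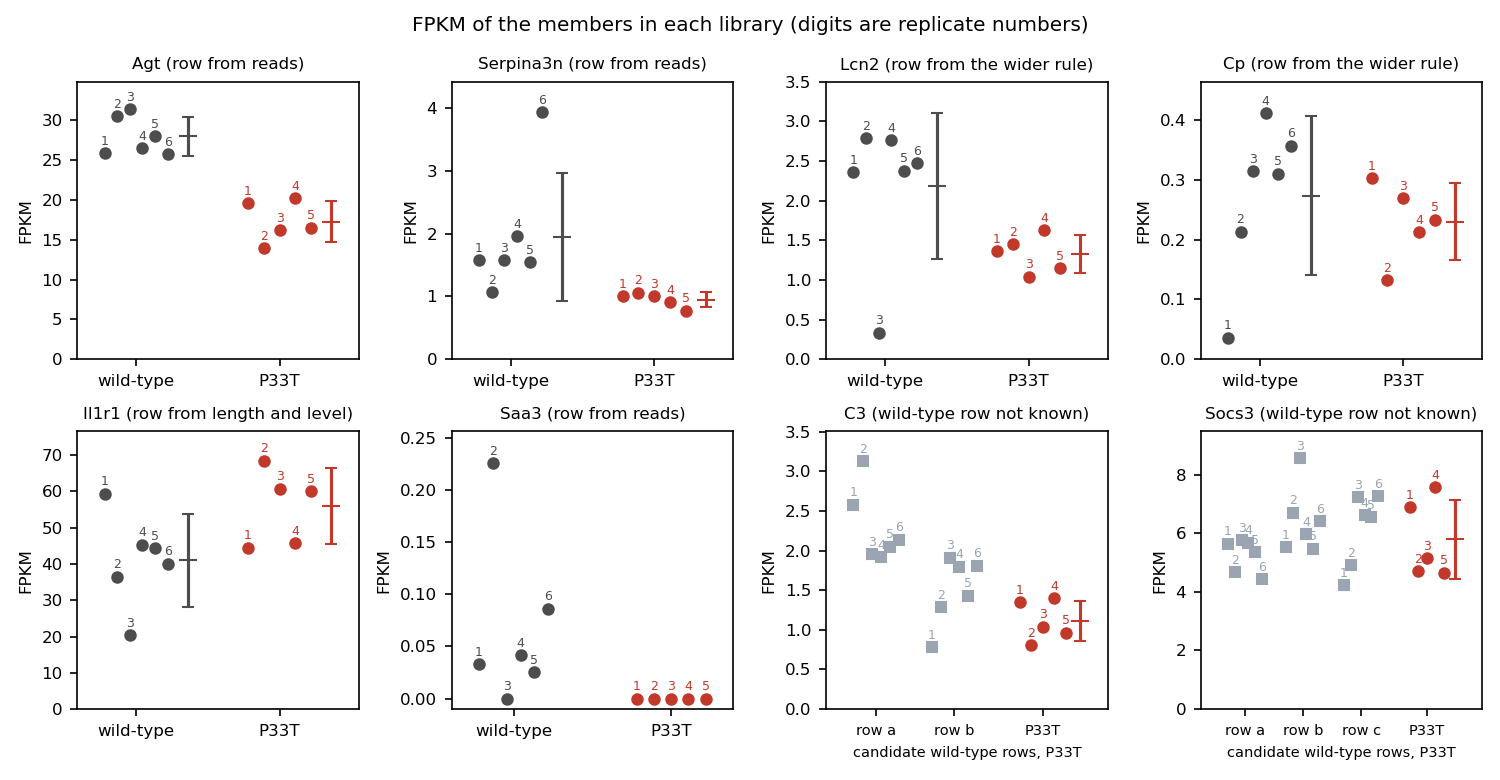
FPKM of 8 members in each library, with the replicate number above each point and the mean ± SD at the side of each group where the wild-type row is known and the gene is not *Saa3*. Grey squares are the candidate wild-type rows of *C3* and *Socs3*, 1 of which may be the gene. *Agt* lies at 25.7 FPKM and above in wild-type and at 20.2 FPKM and below in P33T, while the groups overlap for *Il1r1*, *Lcn2* and *Cp*.

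*Serpina3n* (ENSMUSG00000021091), an inhibitor of serine proteases, was also lower in every P33T library, but by a narrow margin. In wild-type it ranged from 1.07 through a median of 1.58 to 3.94 FPKM, and replicate 6 was the highest by far. The P33T libraries held 1.01, 1.06, 1.01, 0.905 and 0.775 FPKM, close to each other and just under wild-type replicate 2. These values rest on 49 to 217 reads in wild-type and 46 to 67 in P33T, and the Serpina3 genes form a cluster of near copies, between which the counting could split reads. The log2 difference was -0.85 (SE 0.25), and -0.63 (SE 0.15) without wild-type replicate 6. *Agt* and *Serpina3n* are thus 2 of the 3 members in the fit whose groups do not overlap, both lower in P33T. Of all 4726 genes in the fit 2.54% were lower in every P33T library, and of the 1673 genes placed by reads, to which both belong, 6.58%. The genes placed by reads come from the head of the authors' list and hardly any of them has a difference near 0, so nothing is read from these shares. Over the 3 members in the fit the median log2 difference was -0.70, beside -0.06 for all genes in the fit and -0.32 for those placed by reads. This median is the value of *Agt* itself, between *Serpina3n* at -0.85 and *Il1r1* at 0.50, so it does not describe the members as a set.

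**Figure D2:**
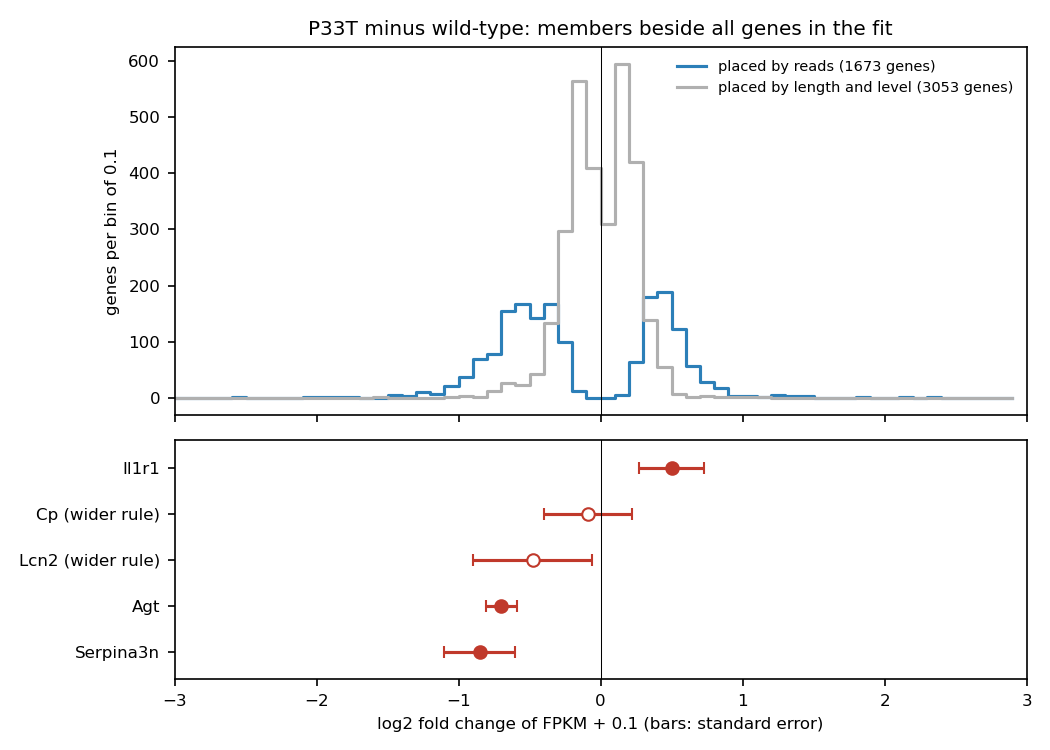
The upper panel counts genes by log2 fold change of FPKM + 0.1 (P33T minus wild-type, bins of 0.1, values beyond 3 drawn at the edge), by the way their wild-type row was identified. The lower panel gives 5 members with their standard error, open circles for the wider rule: *Agt* (-0.70) and *Serpina3n* (-0.85) lie to the left of 0 and *Il1r1* (0.50) to the right, and genes placed by reads are nearly absent around 0.

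The sequences just upstream of *Agt*, *Serpina3n* and *Lcn2* are shown because these are, among the members with a fold between genotypes, the 3 with the lowest P33T mean relative to wild-type. RefSeq's promoter table (GRCm38.p6, an older build than the GRCm39 named in the labels) held 8 of the 10 members. The 250 bases before each start were searched on both strands for TTCNNNGAA (STAT factors), TTGCNNAA (C/EBP factors) and GGNNTTTCC (NF-kB). Matches are in capitals, and no matches of different motifs overlapped in a window. Each sequence is written 5′ to 3′ on the strand of the gene, from chr8:124569707-124569956 (minus strand), chr12:104406458-104406645 (plus strand) and chr2:32387740-32387989 (minus strand), and that of *Serpina3n* stops 62 bases early, where another transcript of the gene begins.
*Agt*: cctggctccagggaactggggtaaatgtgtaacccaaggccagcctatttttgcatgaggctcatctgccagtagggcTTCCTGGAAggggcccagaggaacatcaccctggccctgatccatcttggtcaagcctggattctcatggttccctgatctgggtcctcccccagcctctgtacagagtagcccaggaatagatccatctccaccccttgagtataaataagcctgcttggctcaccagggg
*Serpina3n*: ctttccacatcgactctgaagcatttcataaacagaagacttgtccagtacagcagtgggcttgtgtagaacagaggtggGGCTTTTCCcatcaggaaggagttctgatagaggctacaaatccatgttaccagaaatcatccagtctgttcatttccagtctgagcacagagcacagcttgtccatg
*Lcn2*: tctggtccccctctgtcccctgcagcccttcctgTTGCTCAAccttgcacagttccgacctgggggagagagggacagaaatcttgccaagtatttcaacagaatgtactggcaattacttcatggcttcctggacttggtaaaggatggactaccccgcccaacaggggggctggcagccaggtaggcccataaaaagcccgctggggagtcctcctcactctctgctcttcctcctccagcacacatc
Upstream of *Agt* the STAT letters occur once, 172 to 164 bases before the start. *Serpina3n* holds the NF-kB letters 170 to 162 bases before its start, and *Lcn2* the C/EBP letters 216 to 209 bases before it. Among the other members, *Socs3* holds the STAT letters, *Saa3*, *C3*, *Cp* and *Il1r1* hold the C/EBP letters in at least 1 of their windows, and *Saa3* and *Cp* also hold the NF-kB letters. Of all 32851 windows listed by RefSeq, 7.02% hold the STAT letters, 9.56% the C/EBP letters and 4.93% the NF-kB letters. A match describes these letters in this window and no more.

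*Lcn2* (ENSMUSG00000026822), lipocalin-2, binds bacterial siderophores and is induced by interleukin-1. By the wider rule its wild-type libraries held 2.36, 2.79, 0.336, 2.76, 2.38 and 2.47 FPKM. The P33T libraries held 1.36, 1.45, 1.04, 1.63 and 1.15 FPKM. In 5 of 6 wild-type libraries it was above every P33T library, and wild-type replicate 3, with 17 reads where the others had 144 to 269, was below all of them. The log2 difference was -0.48 (SE 0.42) with all libraries and -0.91 (SE 0.12) without wild-type replicate 3, so 1 library decides its size. Of 4 wild-type rows with the recovered length of 2623 bases, the row taken for *Lcn2* had a mean of 2.18 FPKM and the other 3 means of 0.231 FPKM and less. The other genes of that length, *Foxj1*, *Gm37607* and *Acod1*, were at 0.309 FPKM and less in P33T.

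*Il1r1* (ENSMUSG00000026072), the signalling receptor for interleukin-1, tended the other way from *Agt*, but its groups overlapped. The wild-type libraries held 59.4, 36.5, 20.4, 45.3, 44.3 and 40.1 FPKM. The P33T libraries held 44.5, 68.5, 60.8, 45.7 and 60.1 FPKM. Replicate 3 was the lowest wild-type library and replicate 1 was higher than 2 of the P33T libraries. The log2 difference of 0.50 (SE 0.23) dropped to 0.31 (SE 0.15) without wild-type replicate 3 and to 0.16 (SE 0.14) without wild-type replicates 2 and 3 and P33T replicate 2. Its row was identified in part by like levels in both genotypes, which limits the difference that could be seen.

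*Cp* (ENSMUSG00000003617), the copper-carrying ferroxidase ceruloplasmin, was low in both genotypes. It ranged from 0.0359 through 0.312 to 0.411 FPKM in wild-type, and the P33T libraries held 0.303, 0.132, 0.27, 0.212 and 0.233 FPKM. The groups overlapped, and wild-type replicate 1, with 8 reads, was the lowest library of all. The log2 difference was -0.09 (SE 0.31), and -0.36 (SE 0.18) without wild-type replicate 1. It was above 0 without wild-type replicate 4 (0.02) or without P33T replicate 2 (0.03).

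*C3* (ENSMUSG00000024164), the central protein of complement, was at 1.35, 0.803, 1.04, 1.4 and 0.965 FPKM in P33T. There are 2 wild-type rows with its recovered length of 5143 bases, and *C3* and *Cyb5d2* are the genes of that length. In P33T *Cyb5d2* was at 2.18 to 2.76 FPKM (mean 2.48), above every P33T value of *C3*. In 1 of the rows all 6 libraries, at 1.92 to 3.13 FPKM, were above every P33T value of *C3*. In the other, at 0.784 to 1.91 FPKM, they overlapped it. No difference is given for *C3*, since it depends on which row is the right one. *Socs3* (ENSMUSG00000053113), which blocks signalling from interleukin-6 type receptors and is induced by STAT3, was at 6.88, 4.71, 5.16, 7.58 and 4.65 FPKM in P33T. The 3 wild-type rows of its length at a like level, between 4.22 and 8.56 FPKM, all overlapped these values.

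*Saa3* (ENSMUSG00000040026), the serum amyloid A made outside the liver, was close to the limit of detection. The wild-type libraries held 2, 13, 0, 4, 2 and 6 reads, so 27 reads (exact Poisson 95% interval 17.8 to 39.3, counting error only) among 158850509 counted. All 5 P33T libraries are listed at 0. Of 19329 genes in the P33T columns 1363 are listed at 0 in 1 library and 366 in all 5, but 0 genes in 2, 3 or 4, so whether such a 0 was measured in each library is not known, and no fold is given. Replicate 2 held 13 of the 27 reads.

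Differences between libraries of the same genotype were not used to choose the members, and here they could be tested. Over 11 libraries, with the mean of each genotype subtracted from log2(FPKM + 0.1), *Agt* and *Il1r1* moved in opposite directions, with a Pearson's r of -0.74 (exact permutation within genotype, two-sided p = 0.000775, adjusted p = 0.00775 over 10 pairs). Spearman's rho was -0.76 (exact permutation p = 0.00931, adjusted p = 0.0931). Without P33T replicates 1 and 4, the libraries farthest from the median of *Agt*, r was -0.73 (n = 9). In the 6 wild-type libraries alone r was -0.80 (exact permutation p = 0.0236) and rho -0.66 (exact permutation p = 0.175), and r was not computed for the 5 P33T libraries alone, since correlations were computed over at least 6 libraries. The other 9 pairs among *Agt*, *Serpina3n*, *Il1r1*, *Lcn2* and *Cp* had adjusted p-values of 0.495 and above for r (exact permutation). For *Agt* and *Serpina3n* r was -0.39 (exact permutation p = 0.127, adjusted p = 0.495), so no common variation within genotype was detected for the 2 genes that were lower in every P33T library. The r of 0.72 between *Lcn2* and *Il1r1* (exact permutation p = 0.148) was 0.07 without wild-type replicate 3 and P33T replicate 3. For *Agt* and *Il1r1*, the r of -0.74 was tested beside pairs of members only. The 5 genes most like *Agt* among 3537 had an r of 0.94 to 0.96 with it. The relation is thus not shown to be particular to *Agt* and *Il1r1*.

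**Figure D3:**
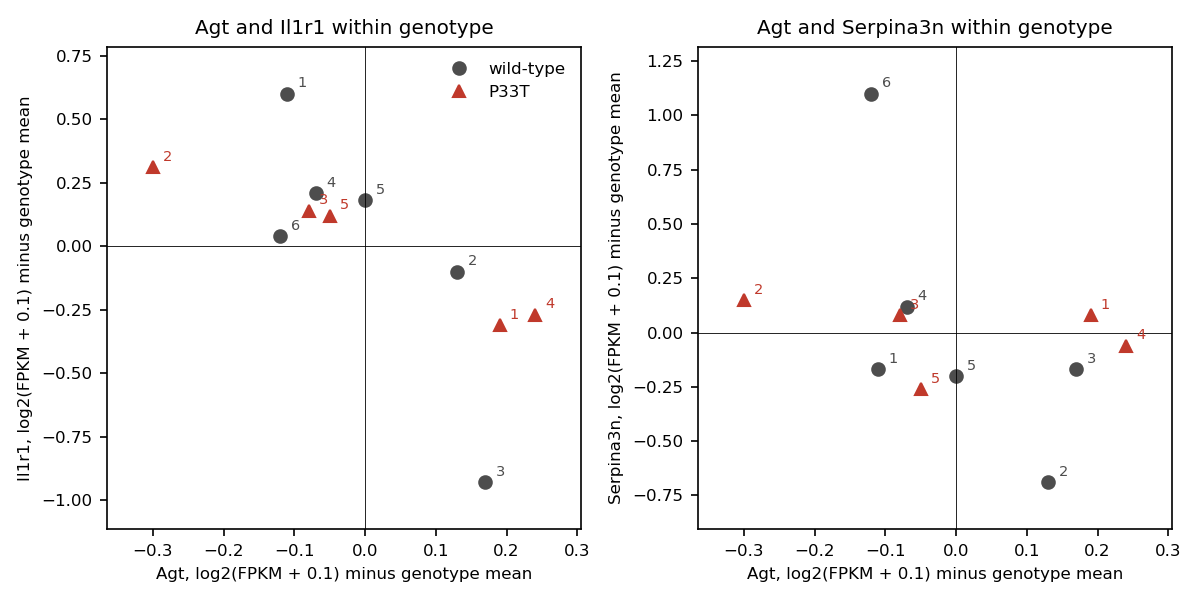
Each point is a library (grey circles wild-type, red triangles P33T, replicate numbers beside them), placed by log2(FPKM + 0.1) minus the mean of its genotype for *Agt* and for *Il1r1* (left) or *Serpina3n* (right). Libraries high in *Agt*, wild-type replicates 2 and 3 and P33T replicates 1 and 4, are low in *Il1r1* (r = -0.74), and wild-type replicate 6 stands apart in *Serpina3n*.

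Marker genes of other islet cells varied between libraries, and in P33T the endothelial sum had the order of *Agt*. In bulk libraries fewer cells of a type and less RNA per cell cannot be told apart. The summed FPKM of 6 endothelial markers was 74.4, 35.4, 52.4, 77 and 53.6 in P33T replicates 1 to 5. In wild-type the endothelial sum was 218 in replicate 3, where *Agt* was highest, and 44.2 to 92.1 in the others. Among those it did not follow *Agt*: replicate 6, the lowest for *Agt*, had the second-highest endothelial sum of the genotype (92.1), and replicate 2, the second-highest for *Agt*, had the second-lowest (69.7). The most abundant gene of that list with a known wild-type row was *Cdh5*, the endothelial cadherin. For 5 macrophage and leukocyte markers, with *Cd68* the most abundant, the sum was 63.1 and 59.8 in wild-type replicates 2 and 3, 23.8 to 32.8 in the other wild-type libraries and 19.6 to 29.6 in P33T. The same wild-type replicates had the highest sums of 5 stromal markers (36.4 and 19.4, against 5.25 to 7.65), and of 3 Schwann cell markers (5.1 and 2.49, against 1.17 to 1.82). By limma 0 of the 6 endothelial, 4 macrophage and leukocyte, 4 stromal and 3 Schwann cell markers in the fit were called between genotypes, where 0.0846% of all genes were. Their median log2 differences were -0.63, -0.58, -0.58 and -0.67, beside -0.06 for all genes and -0.70 for *Agt* itself. With the genes of the wider rule included, the log2 difference was below 0 for 6 of 6 endothelial, 5 of 5 macrophage and leukocyte, 5 of 5 stromal and 3 of 3 Schwann cell markers. At an unadjusted p under 0.05, where 18.3% of all genes were lower, the lower macrophage markers were 2, *Adgre1* (limma adjusted p = 0.573) and *Csf1r* (limma adjusted p = 0.499). Of the Schwann cell markers 2 were, among them *Ngfr*, a neurotrophin receptor, with all P33T libraries below all wild-type libraries (limma, log2 difference -1.45, SE 0.34, adjusted p = 0.457). Over the markers with a known wild-type row, wild-type replicates 2 and 3 had the highest macrophage, stromal and Schwann cell sums. P33T replicate 2 had the lowest endothelial, macrophage and stromal sums over the same markers. The sum of all 10 macrophage and leukocyte markers, known in P33T alone, was not lowest there. It was 149.7 FPKM in P33T replicate 2 and 142 to 167 in the other P33T libraries. Wild-type replicates 2 and 3 and P33T replicate 2 were then left out, chosen after their marker levels were seen. Without these 3 libraries *Agt* was at 25.7 to 28 FPKM in wild-type and 16.2 to 20.2 FPKM in P33T. Its log2 difference was -0.55 (SE 0.08), and the Schwann cell sum was 1.17 to 1.82 against 0.627 to 1.19. The other sums overlapped between genotypes: endothelial 44.2 to 92.1 against 52.4 to 77, macrophage 23.8 to 32.8 against 23.7 to 29.6, stromal 5.25 to 7.65 against 5.2 to 8.49. The part of these cells in the *Agt* difference was not tested.

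**Figure D4:**
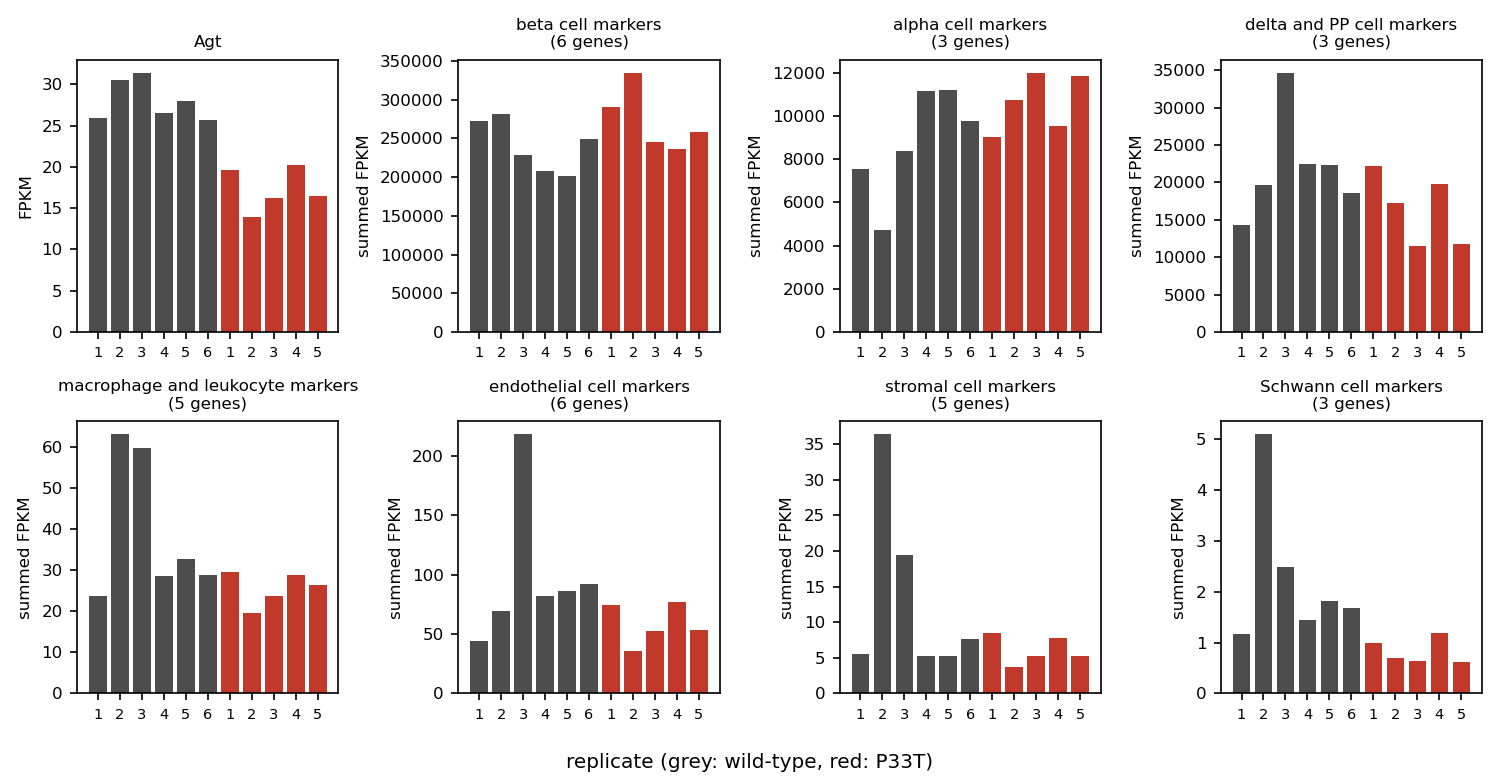
FPKM of *Agt* and summed FPKM of markers of 7 groups of cells in each library (grey wild-type replicates 1 to 6, red P33T replicates 1 to 5). Endothelial markers are highest in wild-type replicate 3 (218), stromal and Schwann markers in wild-type replicate 2, and in P33T the bars of *Agt* and of the endothelial markers have the same order.

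P33T replicate 2, the lowest library for *Agt* and the highest for *Il1r1*, had the highest beta cell marker sum (334687 FPKM, against 236565 to 290909 in the other P33T libraries), most of it *Ins2* and *Ins1*. It also held more acinar RNA: the sum of all 10 acinar markers was 121 FPKM there and 8.8 to 20.4 in the others, with *Ctrb1*, a digestive protease, the most abundant. Short genes were read as more abundant in it as well, with the 469 genes of under 1000 bases at a median of 1.39 times their P33T median, against 0.99 for the 3296 genes of 3000 bases and over. Without this library the *Agt* difference was -0.63 (SE 0.09) and that of *Il1r1* 0.42 (SE 0.24). Alpha cell markers, 3 of 8 in the sum with *Gcg* the most abundant, were at a median of 9070 FPKM in wild-type and 10733 in P33T, and delta and PP cell markers at 21003 and 17202. *Krt7*, the only ductal marker with a known row, was at 54 FPKM ± 8.71 (n = 6) and 58.9 ± 4.72 (n = 5).

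The genes most like *Agt* in their variation within genotype were *Mepce*, *Arhgef19*, *Zfp821*, *Tcf3* and *Eri3*. They were the 5 with the highest Pearson's r (0.94 to 0.96) over 11 libraries among 3537 genes with a mean of at least 1 FPKM, and being picked for this they carry no test. *Mepce*, which methylates the cap of a small nuclear RNA, was at 15.2 FPKM ± 0.989 (n = 6) in wild-type and 12.4 ± 1.81 (n = 5) in P33T. *Arhgef19*, an exchange factor for small GTPases, was at 3.12 ± 0.407 and 2.04 ± 0.43 FPKM. *Tcf3*, a basic helix-loop-helix factor that pairs with tissue-specific partners, was at 9.22 ± 0.851 and 7.55 ± 1.28 FPKM. All 5 were lowest in P33T replicate 2 among the mutant libraries, as *Agt* was. For *Lcn2* no such genes are named, since its row rests on the wider rule.

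Around *Agt*, the other genes of the renin-angiotensin system gave no call between genotypes. Of 18 genes listed 13 are in the table and 5 entered the fit. With limma and Benjamini-Hochberg adjustment over 19329 IDs 0 of the 5 were called (adjusted p up to 0.05 and a change of 1.5 times or more), where 0.0846% of all genes in the fit were. Their median log2 difference was -0.09, beside -0.06 for all genes. At an unadjusted p under 0.05 there was 1 higher, where 15.7% of all genes were higher and 18.3% lower. It was *Atp6ap2*, the prorenin receptor and a part of the proton pump of vesicles, at 94.5 FPKM ± 20.6 (n = 6) in wild-type and 134 ± 34.1 (n = 5) in P33T (limma, log2 difference 0.49, SE 0.18, adjusted p = 0.499). The groups overlapped, and P33T replicate 2 was highest with 191 FPKM.

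Renin itself (*Ren1*), the angiotensin receptor genes *Agtr1b* and *Agtr2* and the peptidase genes *Mme* and *Cma1* were not analysed here. *Agtr1a*, the main receptor of angiotensin II, was at 0.16 FPKM ± 0.0687 (n = 5) in P33T and *Mas1*, the receptor of a shorter angiotensin peptide, at 0.0649 ± 0.0309, both far below *Agt* in level. *Ace*, which makes angiotensin II, was at 0.8 FPKM ± 0.265 in P33T and 1.39 ± 0.936 in wild-type (limma, log2 difference -0.61, SE 0.33, adjusted p = 0.777), with 3.25 FPKM in wild-type replicate 3. The most abundant genes after *Atp6ap2* were *Ctsa* (34.6 FPKM ± 2.98) and *Anpep* (14.5 FPKM ± 1.41) in P33T, a carboxypeptidase of lysosomes and the aminopeptidase that trims angiotensin III, and their wild-type rows are not known.

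Among the other acute phase proteins the genes typical of the liver were scarce. Of 36 genes listed 23 are in the table, and 7 of these had a P33T mean of at least 1 FPKM. The abundant ones were *Ttr* (542 FPKM ± 34.5), *Mt1* (267 FPKM ± 7.59), *Rbp4* (223 FPKM ± 16.8) and *Serping1* (46.4 FPKM ± 4.01), of which *Ttr*, the thyroxine carrier, also marks alpha cells and *Rbp4*, the retinol carrier, also marks delta cells. Fibrinogen beta (*Fgb*) was at 0.404 FPKM ± 0.157, and complement factor B (*Cfb*), lipopolysaccharide binding protein (*Lbp*), *Crp*, *Fga*, *Hpx* and *Lrg1* were at 0.1 FPKM or less. Of 4 genes in the fit 0 were called by limma, and 1, *Fgb*, had an unadjusted p under 0.05 (log2 difference -0.76, SE 0.29, limma adjusted p = 0.499). *Fgb* was placed by reads, where 48.5% of genes were lower at that threshold, against 18.3% of all genes in the fit. The median log2 difference of the 4 genes was -0.42, and -0.10 over the 7 genes of the wider rule. *Mt1*, a metallothionein that binds zinc, was at 233 FPKM ± 66.6 (n = 6) in wild-type (limma, log2 difference 0.24, SE 0.16, adjusted p = 1).

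The interleukin-1 and NF-kB list, which stands upstream of *Lcn2* and *Saa3*, had 36 of 37 genes in the table and 10 in the fit. By limma 0 of the 10 were called, and at an unadjusted p under 0.05 there were 1 higher, *Ikbkg*, and 3 lower, *Tnf*, *Tnfrsf1b* and *Tnip1*. Among genes placed by reads, as all of these were, 38.6% were higher and 48.5% lower at that threshold. Over all genes in the fit the shares were 15.7% and 18.3%. The median log2 difference of the 10 genes was -0.17. *Tnfrsf1b*, a receptor of tumour necrosis factor found on leukocytes and endothelium, ranged from 1.15 to 4.29 FPKM in wild-type and from 1.02 to 1.63 in P33T (limma, log2 difference -0.71, SE 0.27, adjusted p = 0.499). It was highest in wild-type replicates 3 and 2, the libraries with the most macrophage markers, whose part in this difference was not tested. *Tnf* was at or below 0.132 FPKM in every P33T library, and *Tnip1*, an inhibitor of NF-kB, was at 9.27 FPKM ± 1.4 (n = 6) and 7.44 ± 1.04 (n = 5) (limma, log2 difference -0.31, SE 0.13, adjusted p = 0.52). *Ikbkg*, the regulatory subunit of the IkB kinase, was at 5.22 ± 0.747 and 6.45 ± 0.765 FPKM (limma, log2 difference 0.31, SE 0.12, adjusted p = 0.5).

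The partners of *Il1r1* were present at uneven levels. *Irak1*, a kinase of the receptor complex, was at 26.8 FPKM ± 1.41 (n = 5) in P33T and 23.6 ± 3.56 (n = 6) in wild-type (limma, log2 difference 0.19, SE 0.10, adjusted p = 0.778). The co-receptor gene *Il1rap* was at 0.284 FPKM ± 0.0344 and 0.338 ± 0.0203. Of the other abundant genes, *Tnfrsf1a* (29.1 FPKM ± 5.27), *Rela* (14.2 FPKM ± 2.34) and *Nfkbia* (12.4 FPKM ± 1.23), encoding a death receptor, an NF-kB subunit and its inhibitor, are known in P33T alone. The ligand genes *Il1b* (1.36 FPKM ± 0.324) and *Il1a* (0.114 FPKM ± 0.0722) and the decoy receptor gene *Il1r2* (2.12 FPKM ± 0.595) were low beside *Il1r1* at 55.9 FPKM.

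For the interleukin-6 and STAT3 list, upstream of *Agt* and *Socs3*, all 32 genes are in the table and 10 entered the fit, of which 0 were called by limma. At an unadjusted p under 0.05 there were 1 higher, *Stat5b*, and 3 lower, *Lif*, *Socs1* and *Cebpa*, with a median log2 difference of -0.14 for the 10. Of all genes in the fit 15.7% were higher and 18.3% lower at that threshold. The 3 lower genes were placed by reads, where 48.5% were lower. *Stat5b* was placed by length and level, where 3.14% were higher. *Stat3*, the transcription factor of the pathway, was at 15.9 FPKM ± 1.91 (n = 6) in wild-type and 17.5 ± 1.67 (n = 5) in P33T (limma, log2 difference 0.14, SE 0.10, adjusted p = 1). The signalling receptor *Il6st* was at 7.48 ± 1.29 and 6.97 ± 1.01 FPKM and *Il6ra* at 6.48 ± 0.805 and 6.82 ± 0.573 FPKM. *Cebpa* was highest in wild-type replicates 3 (7.35 FPKM) and 2 (5.83 FPKM), as the macrophage markers were, and lay between 2.06 and 2.95 FPKM in P33T (limma, log2 difference -0.66, SE 0.25, adjusted p = 0.499). *Lif* (limma, log2 difference -0.63, SE 0.20, adjusted p = 0.499) and *Socs1* (limma, log2 difference -0.62, SE 0.23, adjusted p = 0.499) were below 1 FPKM in every library. *Mcl1* (29.3 FPKM ± 2.05), a survival factor, and *Ptpn11* (23.1 FPKM ± 1.41), a phosphatase, led the list in level in P33T, followed by *Cebpb* at 18.2 FPKM ± 2.85. *Il6* itself was at 0.129 FPKM ± 0.059.

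**Figure D5:**
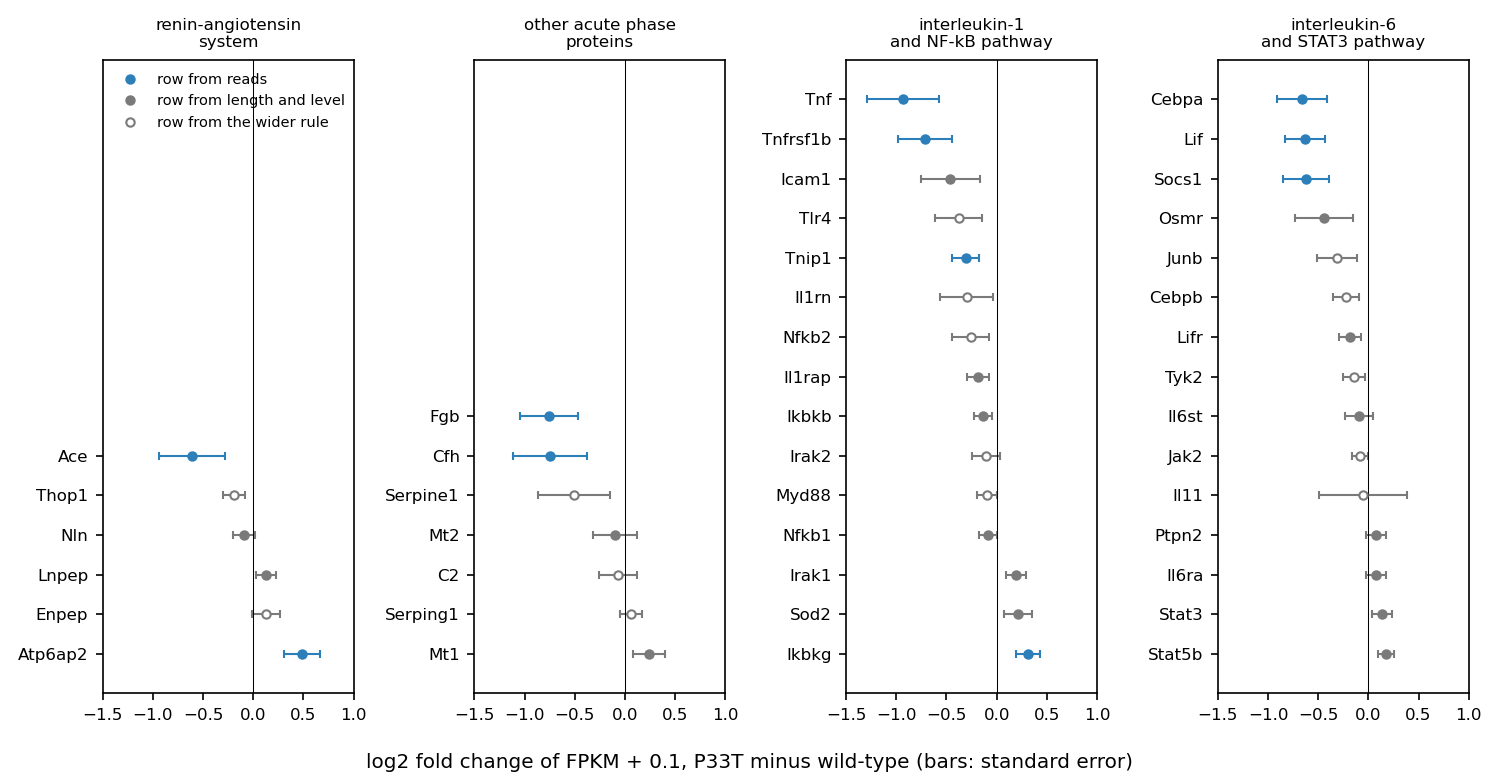
Log2 fold change of FPKM + 0.1 (P33T minus wild-type, bars are standard errors) for genes of 4 lists with an identified wild-type row, by the way the row was found. None passed the adjusted threshold, and *Atp6ap2* (0.49) and *Tnf* (-0.93) lie at the ends.

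The counts of the 4 lists have to be read with the way their rows were found. Of all genes placed by reads 38.6% were higher and 48.5% lower at an unadjusted p under 0.05, against 3.14% and 1.74% of those placed by length and level, which need like levels in both genotypes. With the wider rule the 4 lists had 7, 7, 15 and 15 genes in the fit, and 0 of them were called by limma, where 0.12% of all 6687 genes were.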

How the data were processed

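Bulk RNA sequencing of whole islets (6 wild-type and 5 P33T libraries) was analysed from the FPKM that the authors deposited. Per the methods and labels, the authors trimmed reads with fastp (0.23.1), aligned them with HISAT2 (2.0.5), counted them with featureCounts (1.5.0-p3) and kept genes detected in 80% or more of the libraries of either genotype. The labels name GRCm39. Both an unstranded and a stranded protocol are described, so overlapping genes are uncertain. A further table of the authors' wild-type reads was used only to identify rows.

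The members, gene lists and tests were chosen with earlier results of these data known. The 19329 gene IDs carry P33T values on their own rows, but most wild-type values stand on other rows. Wild-type rows were placed by whole reads in the first 1749 rows of the authors' list (1712 genes) or by a unique recovered length with group means within 4-fold and other candidates beyond 16-fold (3053 genes), 24.7% of IDs together. Where reads could check the second way, 403 of 403 genes were right. That part of the list has no lost rows, so this overstates the accuracy. The wider rule (no other candidate within 4-fold) added 1961 genes. The 39 placed genes at 0 in every P33T library were left out of the fit. Rows known from reads were chosen by the order of that list, and rows known from length need like levels, so both ways bear on the differences seen.

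Log2(FPKM + 0.1) of 4726 genes was fitted with limma 3.58.1 in R 4.3.3 (trend and robust), with Benjamini-Hochberg adjustment over all 19329 IDs, missing genes taken as unchanged. Calls needed an adjusted p up to 0.05 and a change of 1.5 times or more. The fit was tested on simulated data. Covariation was tested over all 86400 orders of libraries within genotype. Named genes were all members, in each list the called genes and up to 4 by mean level, and the 5 genes most like *Agt*; genes named for an unadjusted p were chosen after their values were seen. Python 3.11.15 was used with scipy 1.17.1, pandas 2.3.3, numpy 2.4.6 and, for plots, matplotlib 3.10.9. Alternatives were other pseudocounts, a filter at 1 FPKM, median centring, other limma options, other placement, the replicate block and leaving out libraries. Depth was recovered from the FPKM steps, and read intervals cover counting error only. Results of 2 list genes are not reported here.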

Additional observations from a re-analysis of the deposited data

Results flagged for a closer look

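In 13 groups of libraries with values of a member, 2 libraries stood apart by Dixon's test at 95%, which chance alone gives in about 1 of 20 groups. Wild-type replicate 3 had 0.336 FPKM of *Lcn2* (17 reads), where the other 5 wild-type libraries had 2.36 to 2.79 FPKM. Wild-type replicate 6 had 3.94 FPKM of *Serpina3n* (217 reads), where the others had 1.07 to 1.96 FPKM. Neither library was the lowest or highest of its group in the other gene.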

How the results depend on the processing

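The *Agt* difference kept its direction in every alternative run, from -0.76 to -0.63 with 1 library left out, -0.66 with median-centred values and -0.67 with a pseudocount of 1. The median of the members in the fit is the value of *Agt* itself with all libraries, so it is not a separate result. This median lay between -0.76 and -0.63 with 1 library left out and was -0.48 with the wider rule, chosen after seeing the data. Of all genes in the fit 4 were called, 2 higher and 2 lower, and no list gene was among them. With 1 library left out 3 to 8 were called, 8 without wild-type replicate 1, and the cause was not tested. There were 2 with a log2 difference of at least 1.5 and 8 with the wider rule, where more genes were tested. With the replicate block by the titles, which drops wild-type replicate 6, 1 gene was called and the *Agt* difference was -0.72. With the replicate block by the library names, which drops wild-type replicate 3, 3 were called and it was -0.67. Same-numbered libraries deviated together with correlations of -0.61 to 0.17 by the titles and -0.61 to 0.15 by the library names. Only number 6 of the library names had its highest correlation with its own number (0.11). Whether the numbers pair libraries cannot be decided from this, since other differences between libraries can hide a pair. Genes with few reads per library, such as *Saa3* in wild-type, were close to the limit of detection at this depth. Whether the 0 of *Saa3* in P33T was measured is not known.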

Other observations

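Wild-type replicate 3, the library low in *Lcn2*, was lowest for *Il1r1* (20.4 FPKM) and highest for *Agt* (31.4 FPKM), *Ace* (3.25 FPKM) and *Tnf* (0.632 FPKM). Wild-type replicate 1 was lowest for *Cp* and highest for *Il1r1* among the wild-type libraries. In P33T, replicates 1 and 4 were the highest for *Agt*, *C3*, *Socs3* and *Ace* and the lowest for *Il1r1*.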
